A study of Drosophila melanogaster with 4 samples.

Results

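The TCF binding loci named after nkd and Notum held 14 of the 4589 peaks in a ChIP-seq list from whole Drosophila melanogaster embryos. Peaks were taken by position alone, with a midpoint on chromosome arm 3L from 15985000 to 16030000 for the Notum region and from 18980000 to 19060000 for the nkd region, on FlyBase release 5. By this rule the Notum region held 2 peaks and the nkd region held 12 peaks. The series had 2 ChIP libraries, made with a crude rabbit polyclonal serum against the N-terminus of TCF, and 2 input libraries of chromatin DNA without that antibody. All 4 libraries came from the strain Y cn bw sp at the labelled stage of 0 to 8 h, sex unknown. The genotype label gives the alleles y[1], cn[1], bw[1] and sp[1], the alleles oc[R3.2], lab[R4.2] and CG33964[R4.2], and allele 1 of Gr22b, Gr22d, LysC, MstProx, GstD5 and Rh6. The collection protocol also names a later egg-laying window, and the stage label was used here.

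Wingless is the main Wnt ligand of the fly embryo. It binds Frizzled receptors and the co-receptor Arrow, which stabilises Armadillo, the fly beta-catenin, and Armadillo then joins TCF, the product of pangolin, at target genes. Both nkd and Notum are known targets that feed back on the pathway. Notum, also called wingful, encodes a secreted carboxylesterase that removes the lipid from Wnt proteins and so lowers the active ligand outside the cell. The segment polarity gene nkd (naked cuticle) encodes an EF-hand protein that binds Dishevelled and lowers the response inside the cell that receives Wingless. In the gene table at hand, which is on release 6, the nearest protein-coding genes to either side of Notum are mib1 and CG42717, and the microRNA gene mir-4941 overlaps it. Those next to nkd are SmydA-2 and Acp76A, and the non-coding RNA gene lncRNA:CR45940 overlaps it. Positions were not converted between releases, so no peak below is placed in a promoter, an intron or an exon of these genes, and the region names rest on position alone.

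The list is 1 set of peaks for all 4 libraries. It gives each peak a start, an end and 1 score from the authors, whose median over the 4589 peaks was 16.3, with a range of 6.02 to 904.92. It holds nothing per library: the sequencing depth is unknown, and none of the values below carries an error between replicates. The score followed -log10 of an upper Poisson tail around a fitted expected pileup of 71.7, where pileup is the number of reads or extended fragments over a base, and 4345 peaks (94.7%) matched that scale within 0.01. For these peaks the implied pileup, known to within 1, is given as a fold over the expectation with an exact 95% Poisson interval that covers counting error only. Each pileup is a maximum picked by the caller, which biases it upwards. In whole embryos, fewer cells with bound TCF and less TCF per cell cannot be told apart.

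The called peaks of the Notum region were mainly 1 long block. This peak ran from 16004682 to 16025057 and was 20.4 kb wide, which made it the widest of the 4589 peaks and 1.38 times as wide as the next. Its score was 502.59, rank 17 in the list, and its implied pileup of 779 was 10.9-fold over the expectation (95% interval 10.1 to 11.7). It alone held 0.631% of all bases under a peak in the series. The second peak of the region, at 15997077 to 15997776, was 700 bp wide with a score of 13.08, which placed it below the median of the list. Its implied pileup was 1.98-fold (interval 1.67 to 2.33), and 6.91 kb without a peak separated it from the long block. Within the limits of the region, the block took up 96.7% of the peak bases, and 46.8% of the region lay under a peak.

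**Figure D1:**
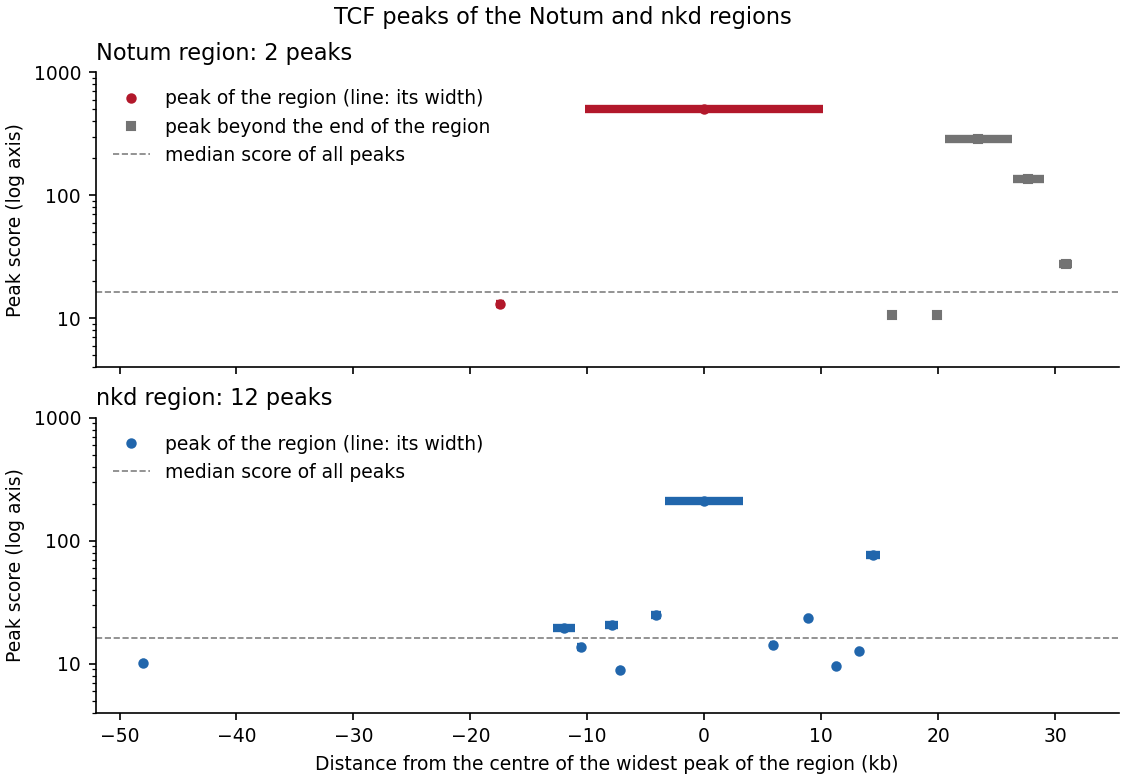
TCF peaks of the Notum region (upper panel) and the nkd region (lower panel), plotted as distance from the centre of the widest peak in kb against the authors' peak score on a log axis. Points mark peak midpoints, horizontal lines span peak widths, and grey squares are the 5 peaks found beyond the end of the Notum region. The Notum region shows 1 block of 20.4 kb at a score of 502.59, whereas the nkd region shows a 6.72 kb peak at 211.59 with 11 lower peaks around it.

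In the nkd region, the called peaks were a central peak and a chain of smaller ones. The central peak ran from 19034044 to 19040763 and was 6.72 kb wide, the third widest of the list as deposited. Its score was 211.59, shared rank 135, and its implied pileup of 468 was 6.52-fold over the expectation (95% interval 5.95 to 7.14). It held 47.4% of the peak bases of the region, and 17.7% of the region lay under a peak. A second, separate maximum lay 10.5 kb beyond the end of the central peak, at 19051274 to 19052442. This peak was 1.17 kb wide, and its score of 76.65 corresponds to 3.89-fold (interval 3.45 to 4.37). The pileup of the central peak was 1.68 times that of this second maximum (exact 95% interval of the ratio 1.44 to 1.95). Both peaks were picked by their score order, so this ratio exceeds 1 by construction and its interval is no test of a difference.

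The remaining peaks of the nkd region were weak. On the side of lower coordinates, the peak at 19032836 to 19033679 ended 0.364 kb before the central peak, with a score of 25.01 and a fold of 2.45 (interval 2.10 to 2.84). Farther out, the peak at 19028958 to 19030025 scored 20.82 with a fold of 2.30 (1.96 to 2.68), and its neighbour at 19030113 to 19030332 scored 8.86 with a fold of 1.77 (1.48 to 2.11). These neighbours were 87 bp apart, which is the smallest gap of the region. The chain went on with a peak at 19026568 to 19027145, which scored 13.69 with a fold of 2.01 (1.69 to 2.36). It started at 19024500 with a peak of 1.86 kb up to 19026362, the widest member after the central peak, whose score of 19.64 did not match the fitted scale, so it has no fold. A single peak at 18989340 to 18989556 stood apart from the chain by 34.9 kb, with a score of 10.19 and a fold of 1.84 (1.54 to 2.18).

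On the side of higher coordinates, 4 small peaks lay between the central peak and the second maximum. The peak at 19043062 to 19043441 scored 14.32, with a fold of 2.04 (1.72 to 2.39). The peak at 19046093 to 19046550 scored 23.37, did not match the fitted scale and has no fold. Closer to the second maximum, the peaks at 19048524 to 19048877 and at 19050466 to 19050766 scored 9.65 and 12.77, with folds of 1.81 (1.51 to 2.15) and 1.97 (1.65 to 2.32). Apart from the central peak, 5 of the 11 peaks scored above the median of the whole list and 6 scored below it. Of the 11 gaps between neighbours in the nkd region, 10 were shorter than 5 kb, with a median over all gaps of 1.81 kb.

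**Figure D2:**
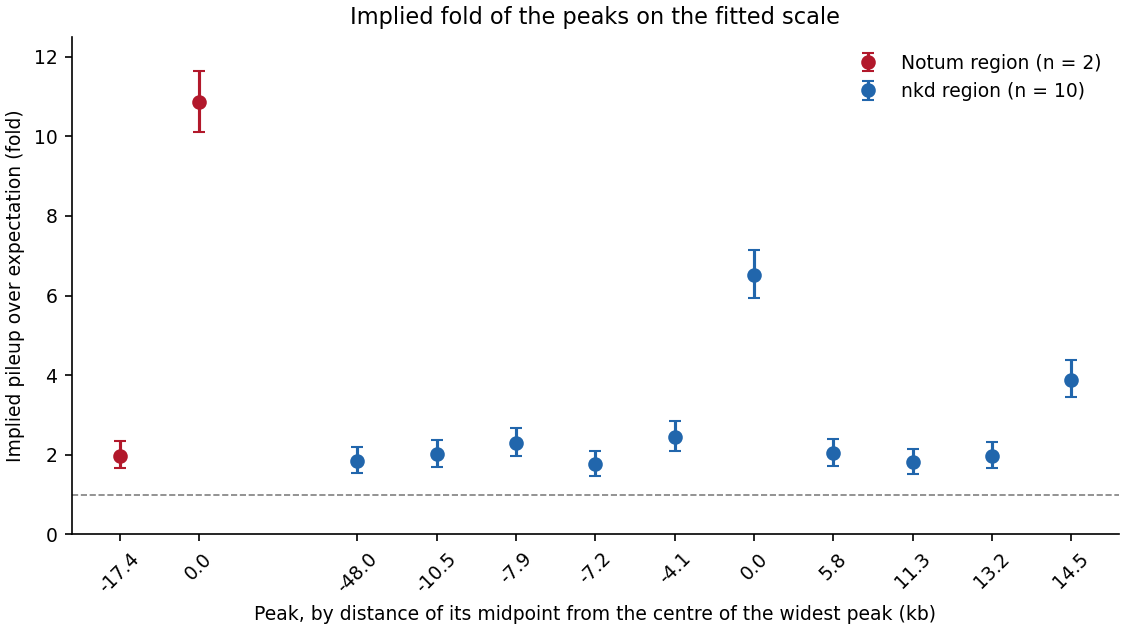
Implied pileup over the expectation (fold) of the 2 Notum peaks and the 10 nkd peaks that matched the fitted scale, in order along each region and labelled by the distance of the midpoint from the centre of the widest peak in kb. Bars are exact 95% Poisson intervals and the dashed line is the expectation. The Notum block stands at 10.9, the central nkd peak at 6.52 and the second nkd maximum at 3.89, and the other 9 peaks lie between 1.77 and 2.45.

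The strongest peak was higher in the Notum region than in the nkd region. The implied pileup of the Notum block was 1.66 times that of the central nkd peak (exact 95% interval of the ratio 1.48 to 1.87). An exact two-sided binomial test of these counts gave p = 1.1e-18, or 1.65e-18 after Benjamini-Hochberg adjustment over 3 such ratios. The ratio within the nkd region is among the 3, although its direction was fixed by the choice of peaks. The test treats reads as independent molecules and compares 2 maxima in 1 list, so it does not speak to the spread between embryo collections. Against the second nkd maximum the ratio was 2.79 (interval 2.43 to 3.21). That peak was picked as lower than the central nkd peak. The direction of this ratio therefore follows from the ratio to the central peak, and it is no separate test. The block was also 3.03 times as wide as the central nkd peak. No test was possible for widths or peak numbers, since the list has no replicate of them.

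The loci differed in opposite directions by coverage and by number of peaks. Peaks covered 21.1 kb of the 45 kb Notum region and 14.2 kb of the 80 kb nkd region, a ratio of 2.64 in percent of the region covered. Peaks were sparser in the Notum region, with 4.44 per 100 kb against 15.0 per 100 kb in the nkd region. This difference rests on low-scoring peaks. When only peaks in the top 25% by score were counted, the Notum region held 1 peak (2.22 per 100 kb) and the nkd region held 2 peaks (2.50 per 100 kb). The difference also depends on where the regions end. In windows of 45 kb centred on the widest peak, the Notum locus held 4 peaks with 53.5% of bases covered, and the nkd locus held 11 peaks with 31.0% covered. The 53.5% also counts part of a peak at 16035443 to 16041184, whose midpoint lies outside that window, beyond the 4 peaks. In centred windows of 80 kb, the Notum locus held 7 peaks with 39.7% covered, against 12 peaks with 17.9% covered at the nkd locus. The share of peak bases in the widest peak also depends on the limits. At Notum it was 84.6% in the 45 kb window and 64.2% in the 80 kb window, against 48.2% and 46.9% at nkd. The same part of an outer peak enters the 84.6%. With all peaks counted, the order of the loci was the same in both window sizes. The difference in peak number was smaller in the wider window. With only the top 25% by score, the order by number reversed in the 80 kb window. At Notum these peaks scored 502.59, 289.45 and 134.96, and at nkd they scored 211.59 and 76.65. These centred windows were chosen after the values were seen.

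The peaks that the wider Notum windows add lie past the end of its region, and which gene they belong to was not tested. The first peak outside, at 16030688 to 16031197, has a midpoint 0.943 kb beyond the limit and a score of 10.74, with a fold of 1.87. It starts 5.63 kb after the long block. In the next 45 kb beyond the limit, 5 peaks covered 23.7% of the bases. They included a peak at 16035443 to 16041184 that was 5.74 kb wide, with a score of 289.45 and a fold of 7.79 (95% interval 7.16 to 8.47). Directly after it, the peak at 16041245 to 16043915 scored 134.96, or 5.13-fold (4.62 to 5.68). Both exceed the second maximum of the nkd region in score, and neither counts as a member by the rule. For nkd, the first peak beyond the limit lay 18.4 kb after the last member, at 19070853 to 19071224, with a score of 14.95.

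Both loci bordered a stretch without peaks on the side of lower coordinates. The 45 kb before the Notum region and the 80 kb before the nkd region held 0 peaks. Empty stretches of these lengths were common, since 42.1% of the tiled 45 kb windows and 27.0% of the 80 kb windows on 2L, 2R, 3L and 3R held no peak. Before the first Notum member, 74.9 kb were free of peaks, and before the first nkd member, 128 kb were free. Of the 3926 gaps between neighbouring peaks on 2L, 2R, 3L and 3R, 8.71% were at least as long as the stretch at Notum and 4.10% were at least as long as that at nkd, against a median gap of 4.96 kb. The last peaks before these stretches, at 15921915 to 15922165 before Notum and at 18859893 to 18861210 before nkd, scored 13.08 and 16.6. A stretch without a called peak may still hold binding below the caller's threshold.

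Scores and widths of the members were set against the whole list. A score among the highest 25% of the list was reached by 1 of 2 Notum peaks and 2 of 12 nkd peaks, where 25.3% of all peaks reached it, ties included. The highest 10% held 1 Notum peak and 1 nkd peak, against 10.0% of all peaks. A width over 2000 bp was found in 1 Notum peak and 1 nkd peak, against 3.68% of all peaks. An implied fold of at least 5 was likewise found in 1 Notum peak and 1 nkd peak, against 5.55% of the peaks on the fitted scale. With so few members, these shares rest on 1 or 2 peaks in each region and are not read as a difference from the list.

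Both maxima were wider than the peaks nearest to them in score rank. The margin at nkd depended on how many neighbours were taken. The 10 peaks next to the Notum block in score rank, 5 on each side, had scores of 464.62 to 563.63 and widths of 1207 to 6028 bp, with a median of 2961 bp. The Notum block was 6.88 times as wide as that median and 3.38 times as wide as the widest of them. For the central nkd peak, the 10 rank neighbours scored 208.33 to 214.04 and were 864 to 2927 bp wide, with a median of 1597 bp. The central nkd peak was 4.21 times as wide as that median and 2.30 times as wide as the widest neighbour. With 10 ranks on each side, a range added after the values were seen, the widest nkd neighbour was 6385 bp and the ratio was 1.05. The ratio at Notum stayed at 3.38. Across the 239 other peaks with a fold of at least 5, widths had a median of 1575 bp and quartiles of 1185 and 2315 bp. Among the 5 widest peaks of the list, the Notum block had the highest implied fold, and the central nkd peak had 6.52-fold. The next widest after the block, on 2L at 3815365 to 3830103, reached 7.67-fold, and that neighbour of 6385 bp, on 2L at 14459246 to 14465630, reached 6.27-fold. These are descriptions of 1 list, and a wide peak can be 1 broad stretch of signal or several close maxima that the caller joined. No summit or coverage track was used here to tell these apart.

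**Figure D3:**
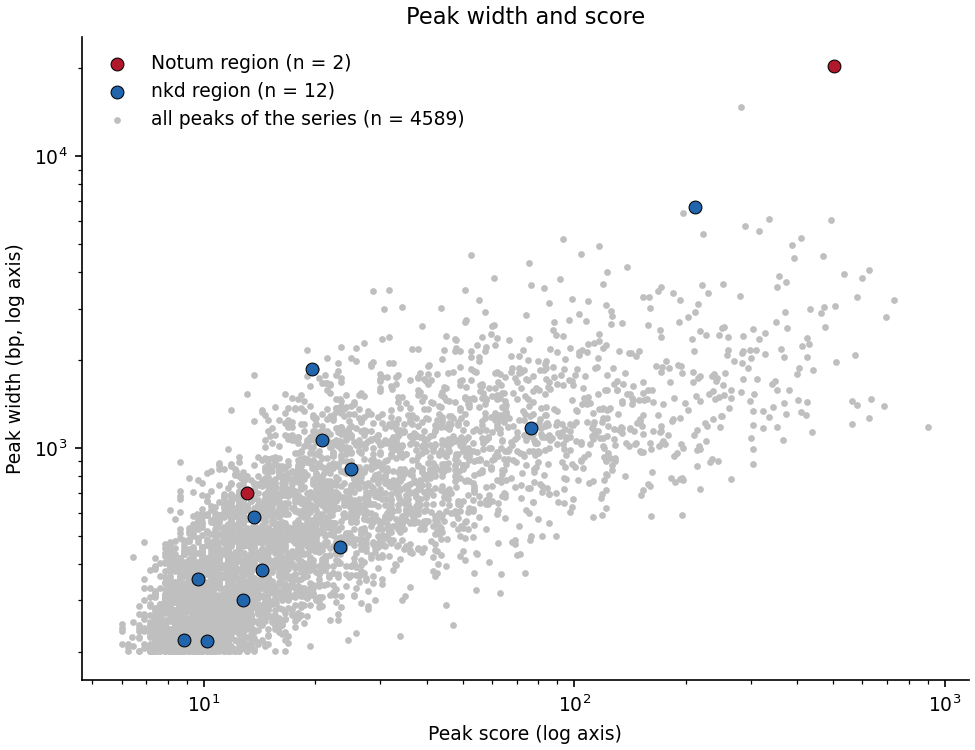
Peak width in bp against the authors' peak score, both on log axes, for all 4589 peaks (grey), the 2 Notum peaks (red) and the 12 nkd peaks (blue). The Notum block, at 20376 bp and a score of 502.59, lies above the peaks of similar score. The central nkd peak, at 6720 bp and 211.59, lies only slightly above a peak of 6385 bp at 197.05. The weak members lie among the rest of the list.

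Coverage by peaks was high at both loci for stretches of their length. When 2L, 2R, 3L and 3R were tiled with windows of 45 kb, 1 of 2111 windows (0.0474%) had as many bases under a peak as the Notum region. With the tiles shifted by 0.5 windows, 4 of 2110 (0.190%) did. The median window had 0.882% of its bases covered, against 46.8% in the Notum region. With windows of 80 kb, 11 of 1187 (0.927%) had as many covered bases as the nkd region, and the median window had 1.47% covered, against 17.7% in the nkd region. By number of peaks, the Notum region stood lower, since 39.2% of the 45 kb windows held at least 2 peaks. At least 12 peaks were found in 4.63% of the 80 kb windows. The regions were placed around known genes with earlier results in view, while the tiles had fixed limits that can cut a group of peaks, so these shares describe the list and are not tests.

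**Figure D4:**
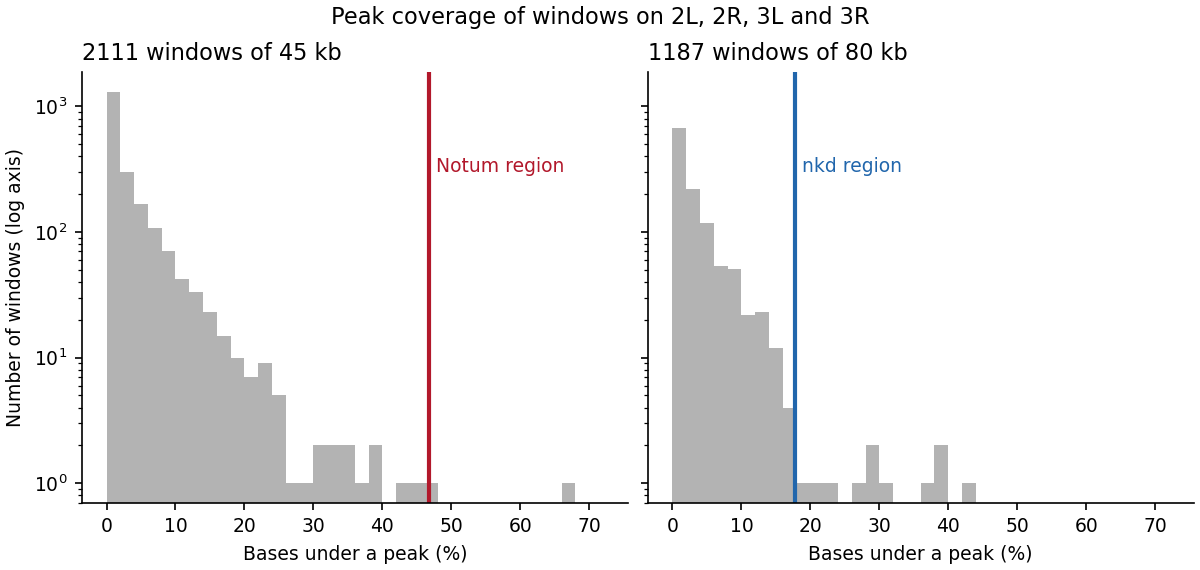
Number of tiled windows on 2L, 2R, 3L and 3R (log axis) by the percent of their bases under a peak, for 2111 windows of 45 kb (left) and 1187 windows of 80 kb (right). Coloured lines mark the Notum region at 46.8% and the nkd region at 17.7%, both in the sparse upper tail.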

How the data were processed

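ChIP-seq of TCF was analysed from 1 peak list for 2 ChIP and 2 input libraries. Per the file headers, coordinates are on FlyBase release 5 and the feature source is MACS. BWA, MACS2, the build BDGP5 and CASAVA (1.7.0.2 and 1.7.0.3) are named, without roles, in the submitters' processing notes. The threshold, the read filters and any pooling were not given in the sources used here. The deposited score has no stated unit. Its scale was fitted by searching expected pileups from 1 to 400 on the 3320 scores under 30. At 71.7, 94.9% of these matched within 0.01, against 48.9% at the best other value. In 3 simulations of 4589 scores, made mostly with the same Poisson formula, the fitted expectation was within 0.00283% of the true one. This checks the fitting code and not whether the deposited score follows that formula. Members were peaks with their midpoint in a region, and all 14 are named. Pileups were compared by an exact conditional binomial test. Alternatives kept the higher scores, merged close peaks, changed the overlap rule or moved windows. Members and lists were chosen with earlier results of these data known. No release 5 annotation and no sequence was used here, so the planned motif search and pathway list were not run. Python 3.11.15, NumPy 2.4.6, pandas 2.3.3, SciPy 1.17.1 and matplotlib 3.10.9 were used.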

Additional observations from a re-analysis of the deposited data

How the results depend on the processing

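Of 45 values under alternatives, 18 moved. The other 27 stayed within 1.5 times the main count for peak numbers or within the exact 95% binomial interval for shares. For the tested ratio the call was kept, and for widths the values were equal. The interval for percent covered treats adjacent bases as independent, so it is too narrow and small changes counted as moved. The tally therefore mixes unlike yardsticks. When only the top 50% or 25% of peaks by score were kept, the Notum region kept 1 peak and 45.28% coverage in both cases, and the nkd region had 6 and 2 peaks, with 15.2% and 9.86% covered. Merging peaks less than 1000 bp apart gave 8 peaks at nkd, against 12 as deposited, with 19.2% coverage and a widest peak of 7928 bp, against 6720 bp as deposited. Both merges, at 200 bp and at 1000 bp, also join the peaks at 16035443 to 16041184 and 16041245 to 16043915 beyond the Notum region. That stretch is wider than the widest nkd peak, so the width rank of the nkd peak holds for the list as deposited. In the centred windows chosen after the data were seen, peaks at Notum numbered 4 (45 kb) and 7 (80 kb), with 53.5% and 39.7% covered, and the 45 kb window at nkd had 31.0% covered. The 53.5% includes part of a peak with its midpoint outside the window. With shifted tiles, 0.190% of windows were covered as much as the Notum region, against 0.0474% unshifted, and 1.35% as much as the nkd region, against 0.927%. On 3L alone, 0.0% of the 45 kb tiles were covered as much as the Notum region. Fewer peaks or other limits enter these values by construction. Counting the observed value in the Poisson tail left the Notum to nkd pileup ratio at 1.66. No paired analysis was possible because libraries have no values of their own in the list, and no replicate could be left out. Since depth is unknown, a place without a peak may still be bound.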
